A study of Capra hircus with 29 samples.

Results

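The genes that handle pyruvate and lactate were followed in goat oocytes. The set held 10 genes: LDHA, LDHB, MPC1, MPC2, PDHA1, PDHB, DLAT, DLD, PDHX and PDK1. They were found by gene symbol in a table of 21343 genes, which located 9 of the 10 in 15 rows. LDHA was then located by its NCBI gene number, in a row with the symbol LDH-A (ENSCHIG00000018372). PDHA1 was read from the row LOC108634540 (ENSCHIG00000000162), because that row carries the NCBI gene number of PDHA1. Of the 2 rows with the symbol PDHA1, 1 held a mean of 0.702 FPKM and the other 0. FPKM are fragments per kilobase of transcript, scaled to the size of the library. With the rows that share those symbols, 20 rows were read, and 1 main row per gene is reported.

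The oocytes came from Ji'ning grey goats of a high fertility population, with litters over 3 kids, and a low fertility population, with litters under 2 kids, by the sample labels. The methods of the study place these limits differently and count litters at the limits themselves. RNA was measured by RNA-seq in 29 samples: HLO, HMO and HSO are oocytes of large, medium and small follicles of the high fertility goats, and LLO, LMO and LSO those of the low fertility goats. Each group had 5 samples, numbered 1 to 5, except HSO with 4, numbered 1, 3, 4 and 5. Each sample held a few oocytes. By the methods, the oocytes of a stage in the high fertility group were pooled over goats and then split into the samples. The methods state this pooling for that group only, though they list the samples of both groups after it. Neither the age nor the identity of the goats is known for a sample. Samples split from 1 pool are not separate animals, so the p-values measure the spread between samples and not between goats. That spread may in part be technical. The labels name no agent or genetic change in any group. In such bulk samples, less RNA of a gene per oocyte and fewer oocytes that hold it cannot be told apart.

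Pyruvate is a main fuel of the growing oocyte, which takes up much of it from the surrounding granulosa and cumulus cells. Lactate dehydrogenase, built from the subunits LDHA and LDHB, interconverts pyruvate and lactate in the cytosol. Pyruvate enters mitochondria through a carrier of MPC1 and MPC2, and the pyruvate dehydrogenase complex turns it into acetyl-CoA for the citrate cycle, while kinases such as PDK1 switch the complex off.

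The labelled cell type was checked by markers. Of 10 oocyte markers 9 were in the table, and all 9 passed 0.5 FPKM in some samples. NLRP5 and NOBOX were low, with means of 0.303 and 0.379 FPKM, and in HMO 7 of the 9 passed 0.5 FPKM in any sample. The summed level of the 9 ran from 424 FPKM in LLO replicate 2 to 9066 FPKM in HSO replicate 5, with the zona pellucida gene ZP3 at a mean of 1406 FPKM. Of 15 granulosa and cumulus markers 14 were in the table, and 7 of them passed 0.5 FPKM in some sample. AMH and NR5A1 were at 0 in all 29 samples, and CYP19A1, FSHR and LHCGR had means of 0.0940, 0.0403 and 0.00211 FPKM. HAS2 had a mean of 1.45 FPKM. The summed level of the list ran from 6.84 to 41.1 FPKM, mostly STAR with a mean of 18.8 FPKM. Theca and stroma markers summed to 2.94 to 19.1 FPKM, mostly DCN with a mean of 7.95 FPKM. INSL3 was at 0 in all samples, and 6 leukocyte markers summed to at most 0.955 FPKM. The FPKM of all genes summed to 222697 to 490048 per sample. LMO replicate 2 was the lowest, and the next sample was at 347806.

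All 10 genes were detected in every sample, on levels that differed widely between genes. The mean over 29 samples was 219 ± 215 FPKM (SD) for LDHA, which was above the mean of 98.5% of the table's genes. LDHB followed with 59.6 ± 23.99, MPC2 with 23.2 ± 9.34 and PDHX with 16.3 ± 5.37 FPKM. PDHB had 14.0 ± 11.5, MPC1 12.03 ± 8.66 and PDHA1 11.2 ± 4.35 FPKM. PDK1 had 6.11 ± 2.91, DLD 3.93 ± 3.31 and DLAT 0.927 ± 0.576 FPKM. Neighbours in this order were compared within each sample on the log2(FPKM + 1) scale. LDHB exceeded MPC2 in 27 of 29 samples, PDHA1 exceeded PDK1 in 26 and DLD exceeded DLAT in 28, with mean differences of 1.29 ± 1.04, 0.85 ± 0.69 and 1.08 ± 0.75 (SD). In the other 6 pairs of neighbours the mean difference was smaller than its SD. LDHA, first by its mean, was above LDHB in 20 of 29 samples, and PDHB was above MPC1 in 15.

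**Figure D1:**
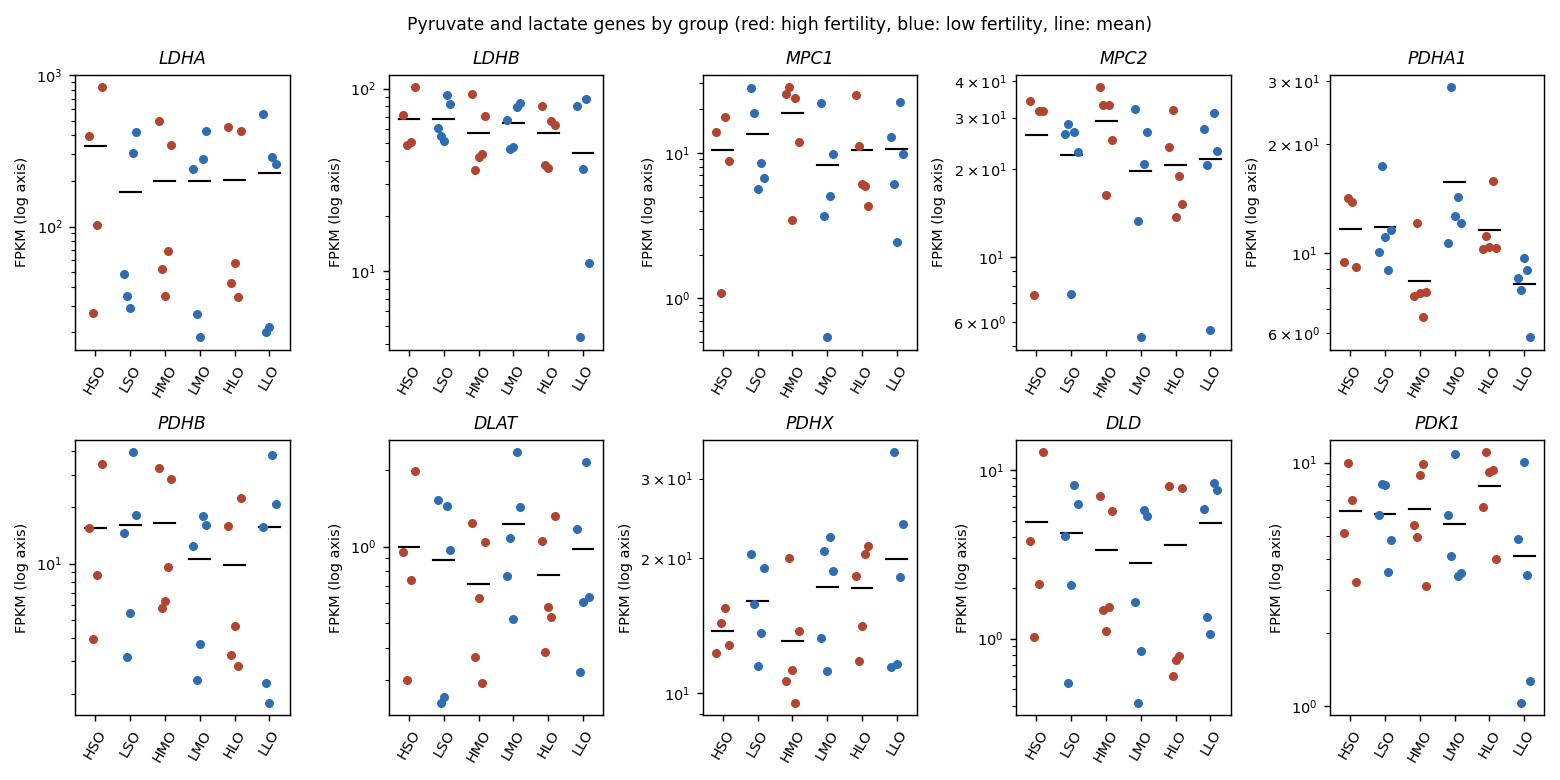
FPKM (log axis) of the 10 genes in the 6 groups, with 1 point per sample, high fertility in red, low fertility in blue and the group mean as a line. LDHA spread from 18.5 to 835 FPKM and PDHA1 from 5.83 to 28.8 FPKM, and the points of most group pairs overlap.

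LDHA encodes the lactate dehydrogenase subunit that predominates in muscle, and its level split every group of oocytes. In HLO replicates 1 to 5 it was 454, 42.1, 57.3, 34.0 and 426 FPKM. In LLO the values were 550, 19.95, 21.7, 287 and 258 FPKM. Replicates 1 and 5 of HLO and 1, 4 and 5 of LLO were high, and the other samples of both groups were below 60 FPKM.

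In HMO replicates 1 to 5 LDHA was 495, 52.4, 35.0, 68.9 and 345 FPKM, and in LMO 242, 26.6, 18.5, 281 and 429 FPKM. In HSO replicates 1, 3, 4 and 5 it was 396, 27.0, 102 and 835 FPKM. In LSO replicates 1 to 5 it was 48.5, 34.6, 28.8, 307 and 420 FPKM. The groups overlapped at each stage. The difference between high and low fertility on the log2(FPKM + 1) scale was -0.04 (SE 1.07) in large, 0.11 (SE 0.99) in medium and 0.93 (SE 1.09) in small follicles, with limma adjusted p of 0.996, 0.987 and 0.902. In small follicles it ran from 0.18 without HSO replicate 5 to 1.81 without HSO replicate 3. The 2 other rows with the symbol LDH-A, with means of 47.4 and 12.1 FPKM, split in the same manner. Per the study's methods only uniquely matched reads were kept, so reads alike in such copies may be missing and the level of LDHA is uncertain.

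LDHB encodes the subunit typical of heart, and it varied less. It was 60.4 FPKM in the median sample and above 35 FPKM in 27 of 29 samples. The 2 low samples were LLO replicate 2 with 4.33 FPKM and LLO replicate 5 with 11.01 FPKM. LLO replicate 2 also had the lowest summed oocyte markers of the 29 samples, 424 FPKM. LLO replicate 5, with 1168 FPKM, was at the median of its group in that sum. The part of this in the LDHB values was not tested. The other values of LLO were 80.7, 36.5 and 88.2 FPKM in replicates 1, 3 and 4, and HLO held 36.6 to 80.6 FPKM. The difference between HLO and LLO was 0.98 (SE 0.74, limma adjusted p = 0.828), and it was 0.38 when LLO replicate 2 was left out and 1.39 when replicate 4 was.

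The ratio of LDHB to LDHA, a description of the mix of the 2 transcripts, ran from 0.0427 to 2.59 with a median of 0.307. It was below 1 in 20 of 29 samples. LDHA and LDHB were the first and second of the 10 genes by mean level, and another relative was also high: LDHC, best known from the testis, had a mean of 92.8 FPKM and ran from 5.22 to 259 FPKM. LDHD, which acts on D-lactate, was listed at 0 in all samples.

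MPC1 and MPC2 form the mitochondrial pyruvate carrier. MPC2 exceeded MPC1 in 27 of 29 samples, and the median ratio was 2.34. MPC2 was 5.33 to 38.1 FPKM, a range of 7.15-fold, whereas MPC1 ran from 0.539 to 28.3 FPKM, a range of 52.4-fold.

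In HMO replicates 1 to 5 MPC1 was 25.5, 28.3, 3.46, 23.9 and 11.9 FPKM. In LMO it was 22.04, 3.66, 0.539, 5.03 and 9.77 FPKM. Of the HMO samples 3 were above all of LMO, and replicate 3 was the lowest in both groups. This was the largest of the 30 differences in the 10 genes between high and low fertility within a stage, 1.34 (SE 0.70) on the log2(FPKM + 1) scale, with an unadjusted p of 0.078 and an adjusted p of 0.608 by limma. With 1 sample left out it ran from 0.83 without LMO replicate 3 to 1.80 without HMO replicate 3, with unadjusted limma p from 0.0173 to 0.215. The differences were -0.01 (SE 0.58) in large and -0.49 (SE 0.67) in small follicles. For MPC2 they were 0.06, 0.70 and 0.14 in large, medium and small follicles, all with limma adjusted p above 0.65, and that in medium follicles was 0.33 without LMO replicate 3. MPC1L, a relative of MPC1, had a mean of 1.96 FPKM.

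PDHA1 and PDHB encode the alpha and beta subunits of the E1 enzyme, which releases carbon dioxide from pyruvate, and PDHA1 carries the sites that the kinases phosphorylate. PDHA1 had the lowest p of the 10 genes in exact permutation tests between fertility groups, and its difference had opposite signs in large and medium follicles. In HLO replicates 1 to 5 it was 10.3, 11.1, 10.4, 15.9 and 10.4 FPKM. In LLO it was 8.53, 7.87, 9.71, 8.99 and 5.83 FPKM. Every HLO sample was above every LLO sample.

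In medium follicles the order was turned. HMO replicates 1 to 5 held 7.60, 12.1, 7.74, 6.66 and 7.78 FPKM, and LMO 10.7, 28.8, 12.6, 14.3 and 12.1 FPKM. HMO replicate 2 was the only HMO sample within the range of LMO. In small follicles PDHA1 was 9.44, 14.2, 13.9 and 9.13 FPKM in HSO replicates 1, 3, 4 and 5, and 10.1, 17.4, 11.05, 8.94 and 11.6 FPKM in LSO, so that these groups overlapped.

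The difference in PDHA1 between HLO and LLO was 0.45 (SE 0.36, unadjusted p = 0.230, adjusted p = 0.828 by limma). An exact two-sided permutation test over the samples gave p = 0.00794, the smallest that 5 against 5 samples allow, and 0.238 after adjustment over the 30 tests of the 10 genes. Of the 10 genes 1, 0 and 0 had groups that did not overlap in large, medium and small follicles, against 0.432%, 1.70% and 2.05% of all genes tested. Between HMO and LMO the difference was -0.77 (SE 0.33, unadjusted p = 0.0362, adjusted p = 0.557 by limma), and without LMO replicate 2, the sample with the lowest FPKM sum, it was -0.54. The unadjusted limma p rose above 0.05 without LMO replicate 2 or 4 or any of HMO replicates 1, 3, 4 and 5, to at most 0.0783. Between HSO and LSO it was -0.01 (SE 0.31). The test of the difference between stages gave an unadjusted p of 0.0122 and an adjusted p of 0.407 (limma F-test), and 7.89% of all genes had an unadjusted p under 0.05 in it. Under median-of-ratios and quantile scaling of the samples neither the medium follicle difference nor the stage test kept an unadjusted p under 0.05. With array weights the stage test gave an unadjusted p of 0.00756 and an adjusted p of 0.142 by limma.

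The second row with the symbol LOC108634540, with a mean of 6.83 FPKM, gave differences of -0.05 in large and -0.57 in medium follicles, with limma adjusted p of 0.977 and 0.619. The higher level in HLO than in LLO was thus not seen in that row. Nor was it seen in the low row with the symbol PDHA1 and a mean of 0.702 FPKM. That row ran from 0.0457 to 1.15 FPKM in HLO and from 0.115 to 4.57 in LLO. In medium follicles it also overlapped, with 0.0382 to 1.99 FPKM in HMO and 0.127 to 1.03 in LMO. How many reads matched both LOC108634540 rows and were left out is not known. Of the granulosa and cumulus markers 3 could be tested in large and 4 in medium follicles, with 1 and 1 higher and 2 and 3 lower in high fertility and medians of -0.17 and -0.38. STAR, the most abundant of them, had differences of the same sign as PDHA1, with 0.96 (unadjusted p = 0.0429) in large and -1.04 (unadjusted p = 0.00509) in medium follicles, and adjusted p of 0.828 and 0.265 by limma. HAS2 and GJA1, the other markers tested in large follicles, had differences of -0.53 and -0.17 there, opposite in sign to STAR. The summed list, which is mostly STAR, ran from 19.4 to 32.7 FPKM in HLO, 10.9 to 19.1 in LLO, 10.8 to 18.04 in HMO and 22.1 to 41.1 in LMO. CYP19A1, FSHR and LHCGR passed 0.5 FPKM in no sample and could not be tested. The part of granulosa or cumulus RNA in the PDHA1 values was not tested.

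PDHB had a wide spread in every group. Its values over the 29 samples ran from 1.80 to 39.5 FPKM, a range of 21.9-fold, against 4.94-fold for its partner PDHA1. The ratio of PDHA1 to PDHB ran from 0.227 to 12.2 and was below 1 in 16 of 29 samples. PDHB did not differ between fertility groups beyond its spread, with differences of -0.38 (SE 0.79), 0.58 (SE 0.62) and 0.02 (SE 0.72) in large, medium and small follicles and limma adjusted p above 0.79. In medium follicles it was 0.21 without LMO replicate 2.

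**Figure D2:**
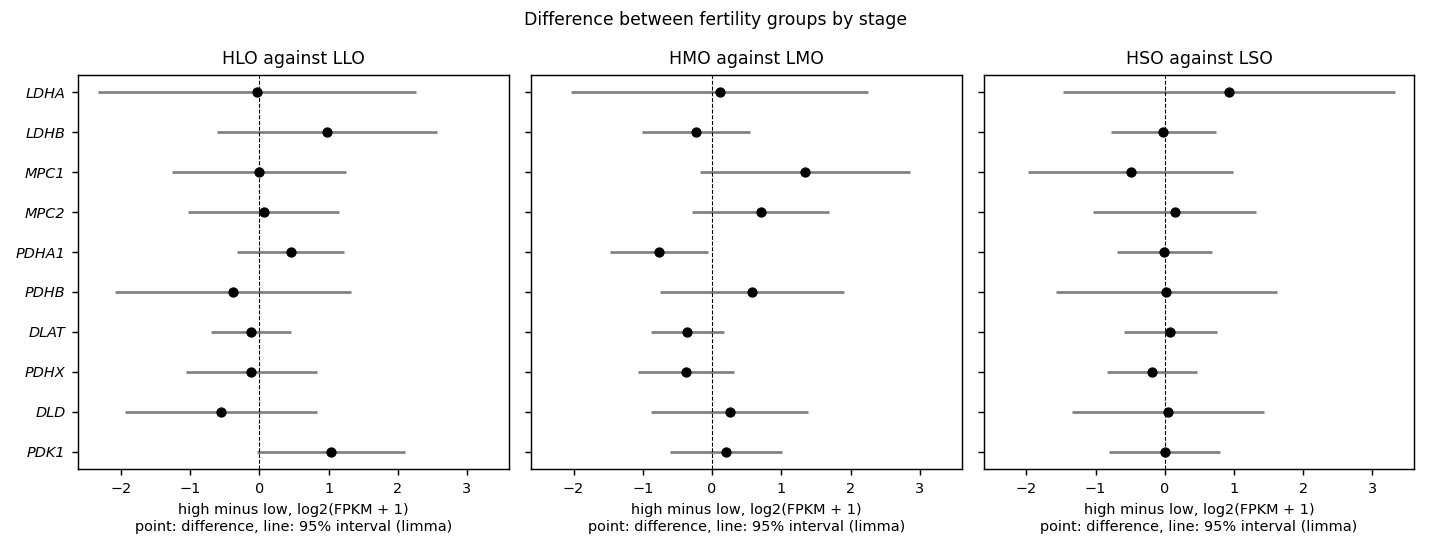
Differences between high and low fertility in the 10 genes at each stage, on the log2(FPKM + 1) scale, as points with 95% intervals from limma. The interval of PDHA1 in medium follicles, -1.48 to -0.06, is the only 1 of the 30 that does not cross 0, and it is not corrected for the number of genes.

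DLAT encodes the E2 core that passes the acetyl group to coenzyme A, PDHX the protein that binds E3 to that core, and DLD the E3 enzyme that is shared with other complexes. DLAT was the lowest of the 10 genes, from 0.245 to 2.34 FPKM, and 22 of 29 samples were above 0.5 FPKM. PDHX had the narrowest range, from 9.52 FPKM in HMO replicate 4 to 34.3 FPKM in LLO replicate 2, or 3.60-fold. DLD ran from 0.417 to 12.7 FPKM, or 30.5-fold. The transcripts of 1 enzyme complex were thus measured with means from 0.927 to 16.3 FPKM. None of the 3 genes had an unadjusted p under 0.05 in any fertility comparison, and their differences lay between -0.55 and 0.25.

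PDK1 encodes 1 of 4 kinases that inactivate the complex. In HLO replicates 1 to 5 it was 6.56, 11.02, 9.15, 9.34 and 4.02 FPKM. In LLO it was 4.84, 1.03, 10.02, 3.47 and 1.27 FPKM. Of the 5 LLO samples 4 were below 5 FPKM, whereas replicate 3 lay among the high values of HLO. LLO replicates 2 and 5, the lowest here, were also the lowest of LLO in LDHB and PDHA1. The difference was 1.04 (SE 0.50, unadjusted p = 0.057, adjusted p = 0.828 by limma), and with 1 sample left out it was lowest, 0.77, when LLO replicate 2 was dropped and highest, 1.38, when replicate 3 was, with unadjusted limma p from 0.00945 to 0.144 and none below 0.456 after adjustment. In medium and small follicles it was 0.20 (SE 0.37) and 0.00128 (SE 0.36).

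Of the other genes that control the complex, the kinase PDK3 had a mean of 8.07 FPKM over all samples, near that of PDK1. Within samples the 2 kinases differed. Mean PDK3 was 12.5, 1.83, 1.73, 9.50 and 13.7 FPKM in the samples numbered 1 to 5, whereas PDK1 was highest in number 3 and lowest in number 5. PDK2 had 0.213 and PDK4 0.00886 FPKM. The phosphatases PDP1 and PDP2, which switch the complex on again, had 0.512 and 0.431 FPKM. PDHA2, the E1 alpha gene of the testis, was listed at 0 in 28 of 29 samples.

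Over all 10 genes no adjusted p under 0.05 was found in any comparison of fertility or stage. In large, medium and small follicles 0, 1 and 0 of the 10 genes had an unadjusted p under 0.05, against 4.14%, 8.67% and 4.41% of all genes tested, and 0%, 0.0715% and 0.0119% of all genes passed after adjustment. The median difference of the 10 genes was -0.02, 0.15 and 0.01, and that of all genes tested -0.09, -0.07 and -0.01. With the 3 stages in 1 fit the fertility difference had an unadjusted p under 0.05 in 0 of 10 genes, against 9.99% of all genes, and the stage of the follicle in 0 of 10, against 1.66%. After adjustment 0.0103% and 0% of all genes passed in these 2 comparisons. The lowest unadjusted p between stages was 0.132, for LDHB. The intervals were wide, for LDHA in large follicles from -2.34 to 2.26, so that differences of this size were not detectable with these samples. The log2 ratios of LDHB to LDHA, MPC2 to MPC1 and PDHA1 to PDHB were compared by fertility in 9 exact permutation tests. The lowest adjusted p was 0.571. The largest difference was -1.34, for PDHA1 to PDHB in HMO against LMO, with SDs of 1.26 in HMO and 1.56 in LMO. Differences of that size could thus be missed.

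The spread within groups followed the number in the sample title in part. The labels do not state what the number stands for. Mean LDHA was 364 FPKM in the samples numbered 1, 35.1 in number 2, 31.4 in number 3, 180 in number 4 and 452 in number 5. The 11 samples numbered 2 and 3 held 18.5 to 57.3 FPKM, and the 6 numbered 5 held 258 to 835 FPKM. Among those numbered 1, LSO was at 48.5 and the other 5 at 242 to 550 FPKM.

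PDHB and DLD were also low in numbers 2 and 3. Mean PDHB was 17.8, 3.38, 4.30, 19.5 and 23.3 FPKM in numbers 1 to 5, and mean DLD was 5.07, 0.877, 1.15, 4.47 and 7.57 FPKM. PDK1 had its highest mean in number 3 and its lowest in number 5, with 5.71, 5.85, 9.50, 6.11 and 3.32 FPKM. MPC1 and MPC2 were lowest in number 3, with means of 3.20 and 9.33 FPKM, against 21.2 and 30.3 FPKM in number 1.

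**Figure D3:**
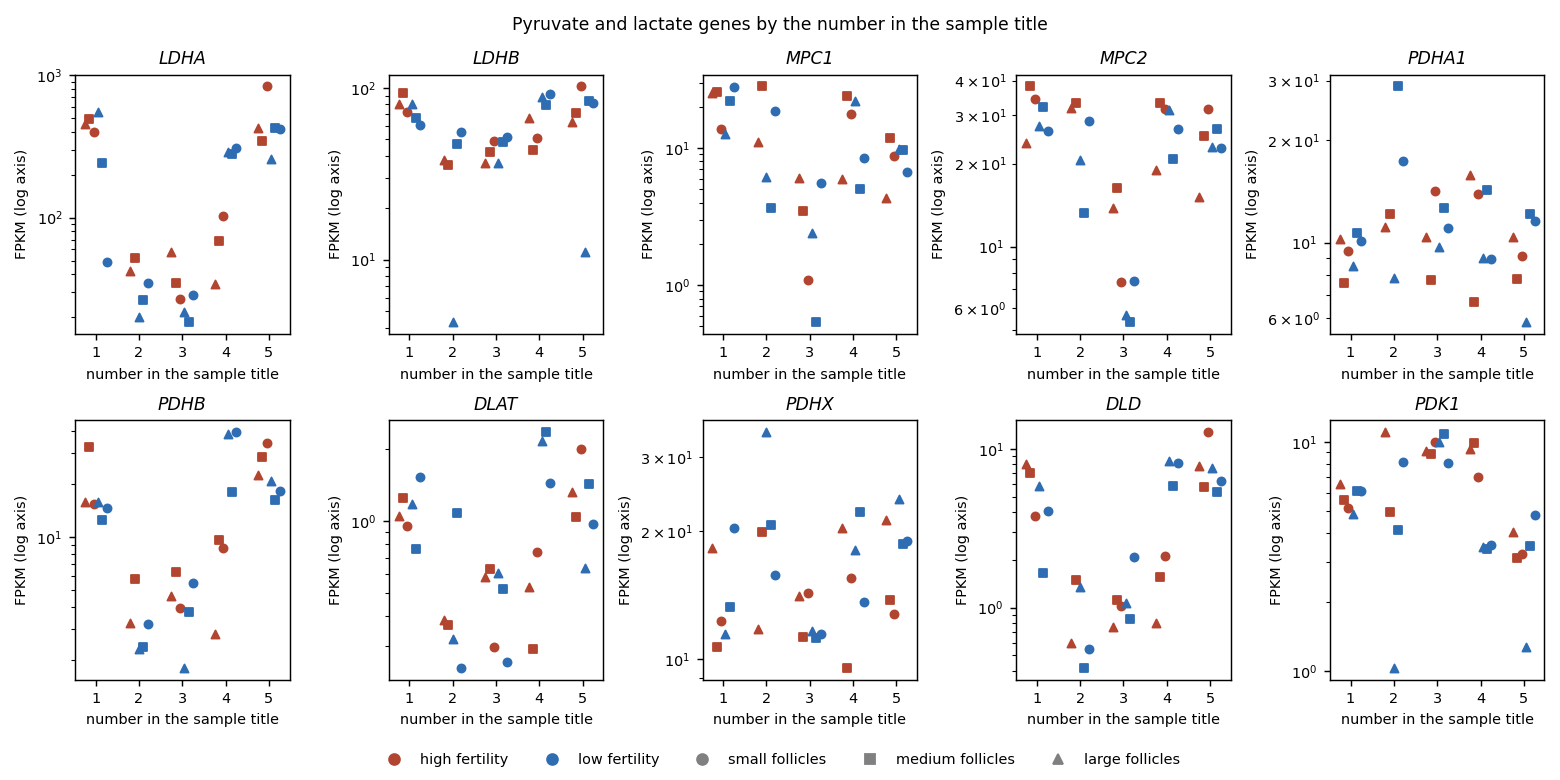
FPKM (log axis) of the 10 genes by the number in the sample title, 1 point per sample, coloured by fertility and shaped by follicle size. LDHA, PDHB and DLD are low in the samples numbered 2 and 3, and in number 4 the red points (high fertility) lie below the blue ones for these 3 genes and above them for PDK1.

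The samples numbered 4 split by fertility. LDHA was 34.0, 68.9 and 102 FPKM in HLO, HMO and HSO and 287, 281 and 307 FPKM in LLO, LMO and LSO. PDHB was 2.82, 9.64 and 8.65 FPKM in the first 3 and 38.4, 18.1 and 39.5 FPKM in the last 3. PDK1 was 9.34, 9.90 and 6.99 FPKM against 3.47, 3.40 and 3.54 FPKM. LDHB, DLAT and DLD were also lower in high fertility there. Thus 6 of the 10 genes did not overlap between high and low fertility within number 4, against 39.0% of all 9692 genes. This is a description of 6 samples chosen after their values were seen, and without them the fertility comparisons again gave no adjusted p under 0.05 in the 10 genes.

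The limma F-test over the numbers gave an adjusted p under 0.05 for 7 of the 10 genes, where 50.5% of all 9692 genes passed, and an unadjusted p under 0.05 for 8 of 10, against 58.0% of all genes. The adjusted p was 3.5e-05 for LDHA, 8e-05 for PDHB, 8.3e-05 for MPC2, 0.000115 for DLD, 0.000257 for MPC1, 0.00615 for PDK1 and 0.0236 for DLAT. It was 0.0623 for LDHB, 0.146 for PDHA1 and 0.212 for PDHX. This share is near that of all genes, so it is not read as a result about the pyruvate and lactate genes. Median-of-ratios factors, which centre the samples on a common median gene, also differed by number, with mean log2 factors of 0.25, -0.31, -0.39, 0.17 and 0.39 in numbers 1 to 5. After that scaling LDHA, PDHB and DLD were still lowest in numbers 2 and 3, DLAT no longer passed, and PDHA1 and PDHX passed, with the highest means in number 2.

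**Figure D4:**
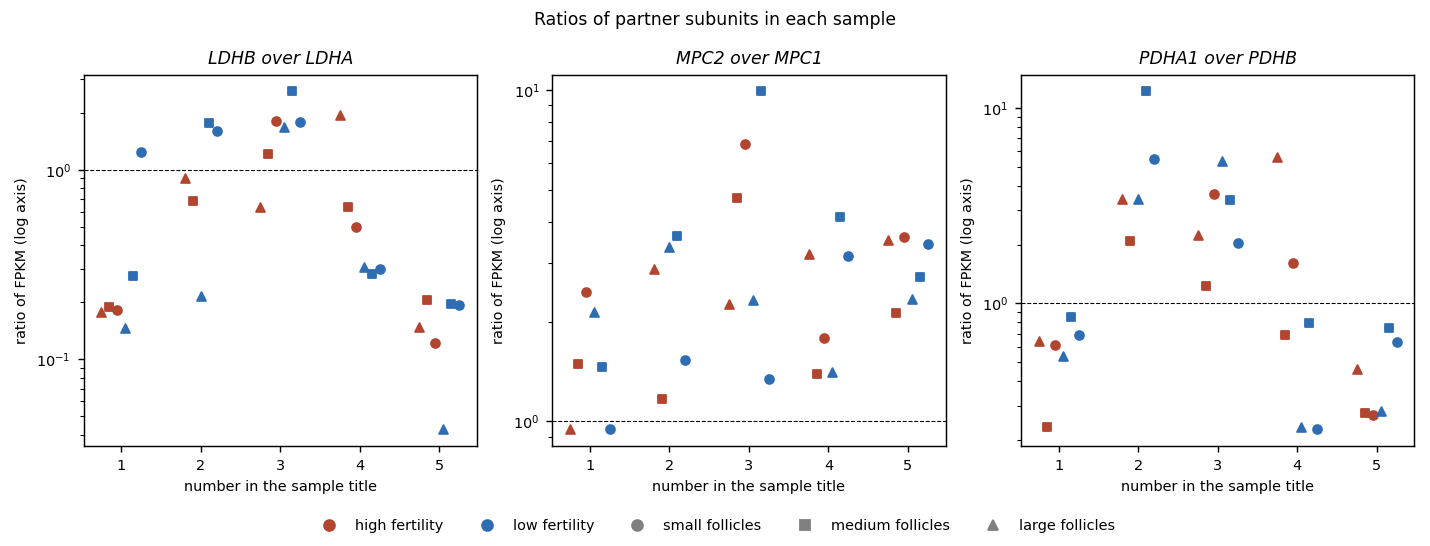
Ratios of FPKM (log axis) of LDHB to LDHA, MPC2 to MPC1 and PDHA1 to PDHB in each sample by the number in its title, with a dashed line at 1. PDHA1 over PDHB is below 1 in all 12 samples numbered 1 and 5 and above 1 in all 11 numbered 2 and 3.

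The ratios of FPKM between partner transcripts varied with the number too, which was not tested. Such a ratio is unchanged by a factor applied to the whole sample. The median ratio of LDHB to LDHA was 0.185, 0.902, 1.74, 0.402 and 0.171 in numbers 1 to 5. LDHB exceeded LDHA in 5 of 6 samples numbered 3 and in none of the 6 numbered 5. The median ratio of PDHA1 to PDHB was 0.628, 3.43, 2.81, 0.741 and 0.371 in numbers 1 to 5. The ratio of MPC2 to MPC1 was below 1 only in 2 samples, both numbered 1. The summed oocyte markers had medians of 2799, 1553, 1149, 2757 and 3682 FPKM in numbers 1 to 5, and their part in these patterns was not tested.

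The genes that feed, carry and use pyruvate were read from lists of 56 further genes, of which 53 were in the table. In large, medium and small follicles 35, 33 and 34 of them could be tested, and 2, 1 and 1 had an unadjusted p under 0.05, against 4.14%, 8.67% and 4.41% of all genes tested. None had an adjusted p under 0.05 by limma in these comparisons or in those of fertility over all stages and of stage. Their median difference was -0.02, -0.14 and 0.05. By the number in the title 24 of 38 tested genes had an adjusted p under 0.05, against 50.5% of all genes.

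ME3, a mitochondrial malic enzyme that makes pyruvate from malate, was 1 of the most abundant of these genes, with a mean of 68.9 ± 42.3 FPKM (SD, n = 29). It was higher by 2.55 (SE 1.02, unadjusted p = 0.0266) in HLO than in LLO and by 1.78 (SE 0.68, unadjusted p = 0.0234) in HSO than in LSO, while the difference in medium follicles was -0.08 (SE 0.46). Over all stages it was 1.40 (SE 0.51, unadjusted p = 0.0104), and its adjusted p by limma was 0.828, 0.880 and 0.424 in large follicles, small follicles and all stages. LIPT1, a lipoyltransferase of the pathway that attaches lipoate to E2 proteins, differed by 0.92 (unadjusted p = 0.0499, adjusted p = 0.828 by limma) between HLO and LLO. PKM, the pyruvate kinase that makes pyruvate at the end of glycolysis, differed by -0.81 (unadjusted p = 0.0170, adjusted p = 0.434 by limma) between HMO and LMO.

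The plasma membrane carriers of lactate and pyruvate were low. SLC16A1 had a mean of 1.81 FPKM, its partner protein BSG 5.60 FPKM and SLC16A7 0.00337 FPKM, and SLC16A3 and SLC16A8 were listed at 0 in all 29 samples. Of the malate-aspartate shuttle, which carries reducing equivalents into mitochondria, MDH1 was high with a mean of 43.2 FPKM. Of the lipoylation genes, NFU1, an iron-sulfur cluster carrier, had 34.7 FPKM. Pyruvate carboxylase, PC, had 0.0392 FPKM, and citrate synthase, CS, which takes up the acetyl-CoA, had 8.69 FPKM. Of the complexes that share DLD, the 2-oxoglutarate dehydrogenase genes OGDH and DLST had 0.393 and 0.357 FPKM. The branched-chain complex genes BCKDHB, BCKDHA and DBT had 6.21, 0.665 and 0.0249 FPKM.

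The genes whose levels ran most like the members over the 29 samples were named by Pearson's r on the log2(FPKM + 1) scale among 7804 genes. Samples of 1 number share much of their pattern, so r describes these samples and carries no test. For LDHA the closest were ZWINT (r = 0.98) and DEGS1 (r = 0.97), and 400 genes had r above 0.9. For PDHB they were GTF2B (r = 0.97) and RBM18 (r = 0.97), and for DLD ATL2 and MKLN1 (both r = 0.97), with 211 and 309 genes above 0.9.

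LDHB was closest to HAX1 (r = 0.95) and CKMT1A (r = 0.93), MPC2 to OOEP (r = 0.91) and CUTA (r = 0.90), and MPC1 to TAF10 (r = 0.89) and TMEM11 (r = 0.84). PDHA1 was closest to MCM3 (r = 0.93) and KLHDC8A (r = 0.92), and PDK1 to RPL36AL (r = 0.93) and DAPL1 (r = 0.91). DLAT was closest to ATG7 and PDIA3 (both r = 0.89), and PDHX to RLIM (r = 0.90) and HERPUD2 (r = 0.89). No gene had r above 0.9 with MPC1 or DLAT. Spearman's rho, which uses ranks, was furthest below r in the pairs of LDHB and MPC2. It was 0.85 for HAX1 and 0.80 for CKMT1A with LDHB, and 0.76 for OOEP and 0.74 for CUTA with MPC2.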

How the data were processed

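Per the study's methods, mRNA of a few pooled oocytes per sample was enriched with oligo(dT) and sequenced on an Illumina instrument; uniquely matched reads were kept, duplicates were removed with picard, and the authors deposited FPKM per gene made with Cufflinks and the Ensembl annotation. The aligner and genome build are not given in the sources used here. FPKM hold no counts, so the depth behind each value is unknown and no counting interval was given. Values were compared as log2(FPKM + 1). Genes above 0.5 FPKM in at least 4 samples of a fit were tested with limma 3.58.1 (R 4.3.3, trend, Benjamini-Hochberg over all genes tested) for fertility at each stage and over all stages, for stage, for fertility by stage and for the number in the title. Single genes and subunit ratios were also tested by exact permutation of the samples. Named genes were the 10 members, listed pathway genes with an unadjusted p under 0.05 or a level that bears on a member, and the 2 genes most like each member. The members and lists were chosen with earlier results of these data known. The column of 1 sample not in use was left out. Symbols were matched through NCBI gene numbers of RefSeq. No sequence or position is given, since no genome was used here. The procedures were tested on simulated data. Alternatives were other pseudocounts, filters and scalings, array weights, a replicate block, 1 fit over all samples and each sample left out in turn. Leaving out the samples numbered 4 was chosen after seeing the data. Scripts ran in Python 3.11.15 (scipy 1.17.1, numpy 2.4.6, matplotlib 3.10.9, pandas 2.3.3).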

Additional observations from a re-analysis of the deposited data

Results flagged for a closer look

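Of 60 sets of values, the 10 genes in 6 groups, 5 held 1 sample far from the others by Dixon's ratio, where chance gives about 1 in 20. MPC2 was 7.45 FPKM in HSO replicate 3, against 31.6 in the nearest sample. It was 7.52 FPKM in LSO replicate 3, with the nearest sample at 22.8. PDHA1 was 15.9 FPKM in HLO replicate 4, against 11.1 in the nearest sample. It was 12.1 FPKM in HMO replicate 2, with 7.78 the nearest, and 28.8 FPKM in LMO replicate 2, with 14.3 the nearest. Both MPC2 samples carry the number 3, in which MPC2 had its lowest value in all 6 groups, and LMO replicate 2 had the lowest FPKM sum of the 29 samples.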

How the results depend on the processing

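The counts of members with an adjusted p under 0.05 for fertility, stage and fertility by stage were 0 under every alternative run. At an unadjusted p, HLO against LLO gave 2 with array weights (16.5% of all genes tested), 1 in 1 fit over all samples (10.6%) and 1 by the exact permutation test. HMO against LMO gave 2 with median-of-ratios factors (9.93% of all genes), 0 with quantile normalization (9.67%), 6 with array weights (39.8%) and 0 without the samples numbered 4 (3.99%). With array weights fertility over all stages gave 3 (33.8% of all genes) and stage 1 (8.43%). Fertility by stage gave 0 under both scalings (9.67% and 9.95%) and without the samples numbered 4 (6.45%). Leaving out 1 sample gave 0 to 1 for HLO against LLO (1 without HLO replicate 5 or LLO replicate 3), 0 to 2 for HMO against LMO (0 without HMO replicate 1, 4 or 5 or LMO replicate 2 or 4, 2 without LMO replicate 1), 0 to 1 over all stages (1 without HSO replicate 5, LLO replicate 3 or LMO replicate 3) and 1 to 2 for fertility by stage (2 without LLO replicate 3).

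Same-numbered samples of different groups deviated together in most pairs (median r = 0.47 over 70 pairs, against -0.18 over 280 pairs of different numbers), and 21 of 29 samples correlated best with their own number, but not every pair passed 0.1, so the numbers were not taken to pair the samples. Between the fertility groups, r for number 4 was -0.05, -0.41 and -0.48 in large, medium and small follicles. For number 1 in small follicles it was -0.0014, and the other such pairs had r from 0.20 to 0.71. With the replicate block the counts at an unadjusted p were 1 for HLO against LLO (8.21% of all genes), 3 for HMO against LMO (16.4%), 1 over all stages (15.1%) and 2 for fertility by stage (14.5%), where PDHA1 had an unadjusted p of 0.00317 and an adjusted p of 0.119 by limma. In HSO against LSO it turned DLAT to -0.052, DLD to -0.34, PDHA1 to 0.13, PDHB to -0.38 and the log2 ratio of PDHA1 to PDHB to 0.51, and it turned PDHB over all stages to -0.025.

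Small differences changed sign. In HLO against LLO, LDHA became 0.11 and 0.063, MPC1 0.15 and 0.13 and PDHX 0.022 and 0.014 under median-of-ratios and quantile scaling, MPC1 0.00959 and 0.00018 with pseudocounts of 0.1 and 0.5, MPC2 -0.072 with array weights, and DLAT 0.12, LDHA 0.71, MPC1 0.42 and PDHB 0.37 without number 4. In HMO against LMO, LDHA became -1.65, DLD -0.71 and PDHB -0.37 with array weights, and PDK1 -0.074 without number 4. In HSO against LSO, LDHB became 0.020 and PDHA1 0.029 under median-of-ratios scaling, DLD -0.13, MPC1 0.26 and PDHB -0.022 with array weights, PDK1 -0.00508 and -0.00178 with the pseudocounts, and LDHB 0.21 and PDK1 -0.22 without number 4. Over all stages, LDHA became -1.05, LDHB -0.32 and PDHB -0.50 with array weights, and DLAT 0.075 and DLD 0.35 without number 4.

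With 1 sample left out, HLO against LLO ranged from -0.24 to 0.070 for DLAT, -0.65 to 0.53 for LDHA, -0.38 to 0.31 for MPC1, -0.34 to 0.23 for MPC2, -0.85 to 0.10 for PDHB and -0.27 to 0.10 for PDHX. HMO against LMO ranged from -0.030 to 0.53 for DLD and -0.51 to 0.60 for LDHA. HSO against LSO ranged from -0.13 to 0.27 for DLAT, -0.50 to 0.42 for DLD, -0.23 to 0.11 for LDHB, -0.86 to 0.19 for MPC1, -0.19 to 0.64 for MPC2, -0.11 to 0.13 for PDHA1, -0.46 to 0.49 for PDHB and -0.22 to 0.24 for PDK1. Over all stages it was -0.24 to 0.013 for DLD and -0.061 to 0.25 for PDHB. The log2 ratios ranged from -0.73 to 0.19 for LDHB to LDHA in HMO against LMO, -0.074 to 0.37 for MPC2 to MPC1 in HLO against LLO and -0.59 to 0.55 for PDHA1 to PDHB in HSO against LSO. By number, DLAT lost its call under both scalings (adjusted p = 0.247 and 0.271, limma) and without HSO replicate 3 (0.0574), PDHA1 and PDHX gained one under both scalings and array weights, and LDHB under array weights and without HMO replicate 4, LLO replicate 5 or LSO replicate 1. The cause of these changes was not tested.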

Other observations

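The 13 protein genes of the mitochondrial genome, whose products work downstream of pyruvate oxidation in the respiratory chain, had a median difference between HMO and LMO of -1.92 on the log2(FPKM + 1) scale. Of the 13 genes 11 were lower in HMO at an unadjusted p under 0.05 by limma, against 8.67% of all genes tested, and 0 had an adjusted p under 0.05. The 13 genes were read in the same samples and can move together, so they are not separate observations. Their summed level was 98.8 to 353 FPKM in HMO and 345 to 4611 FPKM in LMO. In large follicles the difference had the opposite sign in 13 of 13, with a median of 0.94 (HLO minus LLO), and 0 of 13 had an unadjusted p under 0.05. In small follicles 12 of 13 had a difference above 0, with a median of 0.63 (HSO minus LSO) and 0 with an unadjusted p under 0.05. The mRNA had been enriched with oligo(dT), whose part in these levels was not tested.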
